A study of Mus musculus with 4 samples.

Results

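The chemokine system of castrated mouse prostate tumours was described through 52 genes, 34 chemokines (ligands) and 18 chemokine receptors, out of the 32285 gene IDs that were counted. Members were taken by name: every gene symbol made of Ccl, Cxcl, Ccr or Cxcr and a number, plus Cx3cl1, Cx3cr1, Xcl1 and Xcr1, gave 62 gene IDs, of which the 52 with at least 20 UMIs over all samples were kept. No measured difference between groups entered that choice. Just inside the limit lay Ccr3 with 42 UMIs and Ccr8 with 44, and just outside it a further gene ID named Ccl21a with 1 UMI. The other IDs left out had no UMI at all, among them the copies annotated as Ccl21b, Ccl21c and Ccl27b; Ccl19, Ccl21a and Ccl27a have near-identical copies in the genome, so reads of those copies could have been dropped or assigned to the named gene.

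The tumours came from 4 mice, 2 of a genotype called PCSp and 2 of a genotype called PSp. The alleles of PCSp mice include PB-Cre, Chd1L/L and SpopF133V with the mTmG reporter, and PSp mice carry the same alleles except the floxed chromatin remodeller Chd1. PB-Cre is driven by the probasin promoter, which acts in prostate epithelium, so loss of Chd1 in PCSp mice is directed to epithelial cells while stromal and immune cells keep the gene. All 4 mice had been castrated at 9 months of age and were sampled 1 month later, and whole tumours were digested with collagenase and then trypsin, a step that can free RNA from broken cells. Each tumour gave a droplet library in which a captured transcript is tagged at its 3' end and counted once as a unique molecular identifier (UMI), whatever the length of the transcript.

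Chemokines bind receptors with several membrane passes on leukocytes, and the cell that carries the receptor moves up the gradient of the ligand. The family is promiscuous: many ligands share a receptor and many receptors take several ligands, with a few private pairs such as Cxcl16 with Cxcr6. In tumours, ligands of Cxcr2 draw neutrophils, ligands of Ccr2 draw monocytes, and the interferon-induced ligands of Cxcr3 draw activated T cells and natural killer (NK) cells.

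The libraries held 9656 and 9600 barcodes in the PCSp mice and 6539 and 7266 in the PSp mice, with 66874620 to 90839725 UMIs per library and a median of 2289 to 3757 UMIs per barcode. After filters and the removal of likely doublets, 5211 to 7883 cells per mouse remained, of which 25 to 43 per mouse shared a barcode with another library. Clusters were assigned to 9 classes from marker genes, none of them a chemokine or a chemokine receptor, and the classes are called by those markers alone (epithelial-like, neutrophil-like and so on, with the suffix dropped from here on). The labelled tissue was checked against its markers. In each mouse the 10 epithelial markers summed to 11830 to 14420 counts per 1000000 UMIs (CPM) in epithelial cells. They summed to 563 to 878 CPM in neutrophils, 218 to 629 CPM in mononuclear phagocytes, T and NK cells, fibroblasts and endothelial cells, 505 to 969 CPM in B and plasma cells and glial cells and 979 to 3274 CPM in smooth muscle cells and pericytes. Chd1 itself stood at 60.1 and 56.4 CPM in the epithelial cells of the PCSp mice and at 91.5 and 77.9 CPM in those of the PSp mice, but since the counted tags come from the 3' end, which need not be part of the deleted stretch, this does not test the deletion. Nothing in the labels says more than that the mice are separate animals, with no litter, batch or date. P-values rest on the spread between 2 mice per genotype and on variance shared over all genes of a fit. An exact permutation test of 4 mice cannot fall under 0.333.

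Many members lie side by side in the genome. Cxcl5, Cxcl3, Cxcl15, Cxcl1 and Cxcl2 share a stretch of chromosome 5 (chr5:90759360-90905938, mm10), Cxcl9 and Cxcl10 lie nearby (chr5:92321347-92348889), and 2 runs of 6 and 5 Ccl ligands lie on chromosome 11 (chr11:82035571-82305690 and chr11:83525778-83664683). Promoter windows of RefSeq (build GRCm38.p6), from 250 bases before a gene's start to 50 after it, were matched by symbol for 39 of the 52 members. The windows of 6 ligands that recur in the results are printed here 5' to 3' on the strand of the gene, because all 6 hold the consensus of NF-kB, a transcription factor of inflammatory signalling. Capitals mark each match of that consensus and of the core of the interferon-stimulated response element (ISRE), spelled GAAA, any 2 bases and GAAA again, both searched on both strands.
Cxcl10: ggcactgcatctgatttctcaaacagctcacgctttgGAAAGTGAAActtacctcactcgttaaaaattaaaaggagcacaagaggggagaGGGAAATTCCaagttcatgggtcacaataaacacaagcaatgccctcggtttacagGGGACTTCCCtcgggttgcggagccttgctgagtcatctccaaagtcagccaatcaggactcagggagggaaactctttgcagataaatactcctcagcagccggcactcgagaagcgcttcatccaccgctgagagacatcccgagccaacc
Cxcl9: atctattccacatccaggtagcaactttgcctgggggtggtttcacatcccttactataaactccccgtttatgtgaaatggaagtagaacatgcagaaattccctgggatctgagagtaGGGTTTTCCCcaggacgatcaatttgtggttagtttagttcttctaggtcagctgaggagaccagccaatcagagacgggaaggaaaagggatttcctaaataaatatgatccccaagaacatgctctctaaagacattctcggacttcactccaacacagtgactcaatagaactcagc
Cxcl2: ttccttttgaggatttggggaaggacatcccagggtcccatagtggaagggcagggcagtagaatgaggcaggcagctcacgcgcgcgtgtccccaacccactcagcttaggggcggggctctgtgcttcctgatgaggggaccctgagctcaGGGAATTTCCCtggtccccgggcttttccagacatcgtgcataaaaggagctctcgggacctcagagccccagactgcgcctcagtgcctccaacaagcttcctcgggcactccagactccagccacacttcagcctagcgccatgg
Cxcl1: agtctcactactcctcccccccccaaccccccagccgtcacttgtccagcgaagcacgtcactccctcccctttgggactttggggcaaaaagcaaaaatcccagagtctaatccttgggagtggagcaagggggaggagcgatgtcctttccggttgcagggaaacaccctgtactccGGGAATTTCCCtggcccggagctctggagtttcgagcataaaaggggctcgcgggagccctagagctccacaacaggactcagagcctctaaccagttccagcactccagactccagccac
Cxcl3: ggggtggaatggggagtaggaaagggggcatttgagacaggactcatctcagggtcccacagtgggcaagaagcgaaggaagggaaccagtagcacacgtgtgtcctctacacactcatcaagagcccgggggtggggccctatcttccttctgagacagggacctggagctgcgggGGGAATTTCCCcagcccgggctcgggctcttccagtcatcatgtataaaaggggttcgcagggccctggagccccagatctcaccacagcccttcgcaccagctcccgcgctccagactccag
Ccl20: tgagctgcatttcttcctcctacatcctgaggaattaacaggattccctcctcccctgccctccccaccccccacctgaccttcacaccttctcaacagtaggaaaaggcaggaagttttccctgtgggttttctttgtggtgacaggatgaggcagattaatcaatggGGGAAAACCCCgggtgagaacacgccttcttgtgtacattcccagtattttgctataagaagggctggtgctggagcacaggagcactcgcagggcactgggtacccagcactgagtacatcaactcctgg
They lie at chr5:92348840-92349139, minus strand (Cxcl10), chr5:92328030-92328329, minus strand (Cxcl9), chr5:90903649-90903948, plus strand (Cxcl2), chr5:90890995-90891294, plus strand (Cxcl1), chr5:90785851-90786150, plus strand (Cxcl3) and chr1:83116516-83116815, plus strand (Ccl20).

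Cxcl10 held 2 separate matches of the NF-kB consensus, starting 159 and 103 bases before the gene, and a match of the ISRE core 213 bases before it. Cxcl2, Cxcl1 and Cxcl3 each carried the same stretch, GGGAATTTCCC, which counts as 2 overlapping matches, first met 97, 71 and 73 bases before the start. Ccl20 had another such overlapping pair 81 bases before its start, and Cxcl9 a match 130 bases before it. The NF-kB consensus was found in 9 of the 43 member windows (20.9%), against 3.8% of all 32851 windows; the other genes that held it were Ccl9, Ccr3 and Ccr6. The ISRE core was found in 3 of the 43 windows (6.98%), those of Cxcl10, Ccl19 and Cxcl14, against 3.44% of all windows. These are matches of letters, not measured binding.

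Ligand transcripts were concentrated in a few classes. Neutrophils carried 33680 and 37080 CPM of summed ligand UMIs in the PCSp mice and 43620 and 32680 CPM in the PSp mice. Epithelial cells carried 2523 and 2601 CPM in the PCSp mice and 2579 and 2722 CPM in the PSp mice. Epithelial cells, the most numerous and the deepest, held 45.8% of all ligand UMIs, against 37.6% for neutrophils and 7.41% for mononuclear phagocytes. Receptor transcripts were rarer and sat in leukocytes: neutrophils carried 1998 and 2173 CPM in the PCSp mice and 2481 and 2240 CPM in the PSp mice, or 61.1% of all receptor UMIs, phagocytes 26.6%, and epithelial cells 4.73 to 5.55 CPM in the 4 mice.

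A class was called a sender of a ligand, or a receiver through a receptor, when the gene reached 10 CPM there in every mouse and exceeded in every mouse the level that RNA shed from another class could leave; that level was taken from the 3 most abundant markers of the shedding class. By this rule phagocytes sent 18 ligands, fibroblasts 13, epithelial cells 12, neutrophils 10, endothelial cells 6, T and NK cells 5, and smooth muscle cells and pericytes 5. Receivers were phagocytes and T and NK cells with 6 receptors each, B and plasma cells with 5 and neutrophils with 4. The class with the highest mean level was the same for all 52 members when doublets were kept, when cells were limited to 10% mitochondrial UMIs, when clusters were split at resolution 2 and when members were allowed among the genes used for clustering. The lowest mouse of the top class lay above the highest mouse of the next class for 23 of 34 ligands and 14 of 18 receptors.

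**Figure D1:**
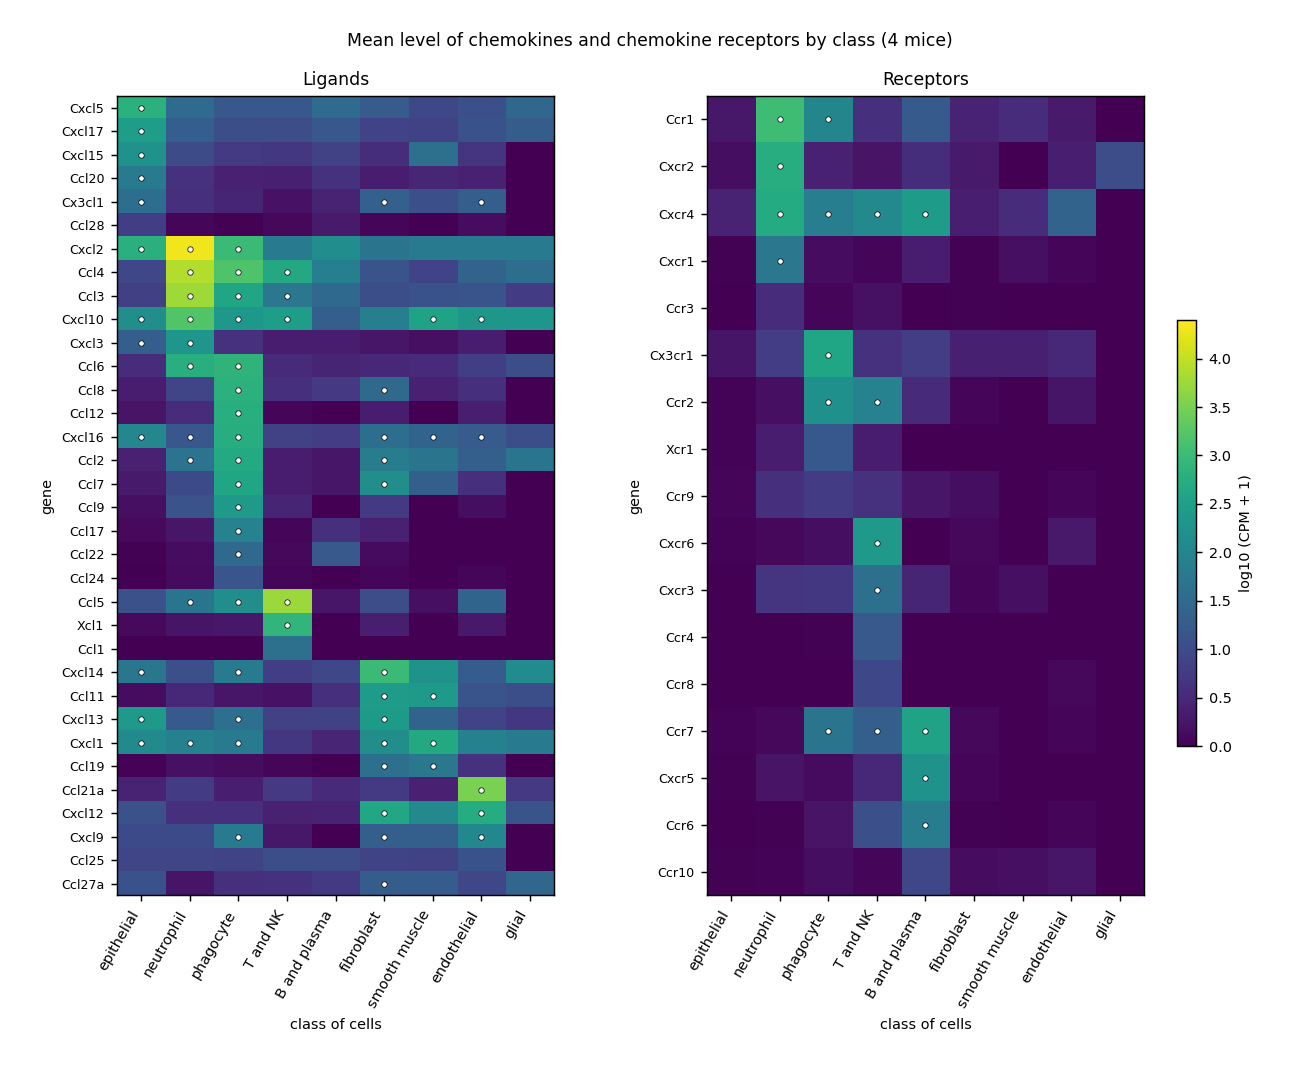
Level of 51 of the 52 members in 9 cell classes (colour, log10 of 1 plus the mean of 4 mice in CPM). White dots mark classes that meet the sender or receiver limit: Cxcl2 reached 20290 CPM in neutrophils, and no receptor has a dot outside leukocytes.

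Neutrophils were the main site of Cxcl2, Ccl3 and Ccl4. Cxcl2, a ligand of Cxcr2 that recruits neutrophils, reached 17300 and 22920 CPM in neutrophils of the PCSp mice and 23980 and 16950 CPM in those of the PSp mice. Ccl3 stood at 5828 and 4201 CPM in the PCSp mice and 8339 and 5591 CPM in the PSp mice. Ccl4 stood at 8017 and 6916 CPM in the PCSp mice and 8491 and 7500 CPM in the PSp mice. Both attract monocytes and lymphocytes. For all 3 genes the highest level in the next class, phagocytes, was far lower, at most 1258, 454 and 1843 CPM. Of all Cxcl2 UMIs 62.6% were in neutrophils, 34.0% were in epithelial cells, where 484 to 873 CPM were counted, and 3.02% in phagocytes. A Cxcl2 UMI was found in 87.1% and 92.2% of neutrophils of the PCSp mice and 92.0% and 89.1% of those of the PSp mice, and in 15.8% and 11.8% of T and NK cells of the PCSp mice and 18.6% and 14.5% of those of the PSp mice, a class that was not above the level shed RNA could leave. Neutrophils were the shallower of the 2 classes, with median depths of 1635 to 2743 UMIs against 3357 to 5200.5 in T and NK cells. After thinning every cell to 500 UMIs, which left no cell out, the shares were 79.0% and 87.4% in the PCSp mice and 85.9% and 81.5% in the PSp mice for neutrophils, and 2.26% to 4.69% for T and NK cells.

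Cxcl3, a close relative of Cxcl2, was also highest in neutrophils but varied widely, at 78.9 and 528 CPM in the PCSp mice and 156 and 41.6 CPM in the PSp mice. Cxcl10, an interferon-induced ligand of Cxcr3, stood at 1607 and 1048 CPM in neutrophils of the PCSp mice and 1852 and 1991 CPM in those of the PSp mice. It was sent by 6 classes, and its UMIs were split between epithelial cells (54.7%) and neutrophils (33.5%) although its epithelial level was 99.1 to 201 CPM.

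The 3 neutrophil clusters, which were formed without chemokine genes, differed in the ligands they carried. Cxcl2 was high in each, at 18680, 21590 and 21150 CPM over the pooled cells of clusters 16, 25 and 26. Cxcl10 was concentrated in cluster 25, whose leading genes include the interferon-induced Slfn4 and Rsad2: it stood there at 6014 and 5400 CPM in the PCSp mice and 5941 and 5516 CPM in the PSp mice, against 53.4 to 170 CPM in the PCSp mice and 32.0 to 109 CPM in the PSp mice for the 2 other clusters. Ccl3 was highest in cluster 26 (leading genes Ccrl2, Clec4d and Prok2), at 9557 and 8904 CPM in the PCSp mice and 15840 and 10660 CPM in the PSp mice, and lowest in cluster 16 (S100a9, S100a8 and Il1b), at 1851 to 2972 CPM. Ccl4 was lowest in cluster 16 too, at 2648 to 4483 CPM. The receptor Cxcr2 had the opposite order, at 805, 618 and 95.5 CPM over the pooled cells of clusters 16, 25 and 26, while Cxcr1, at 6.31, 10.4 and 170 CPM, was highest in cluster 26 as Ccl3 was.

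**Figure D2:**
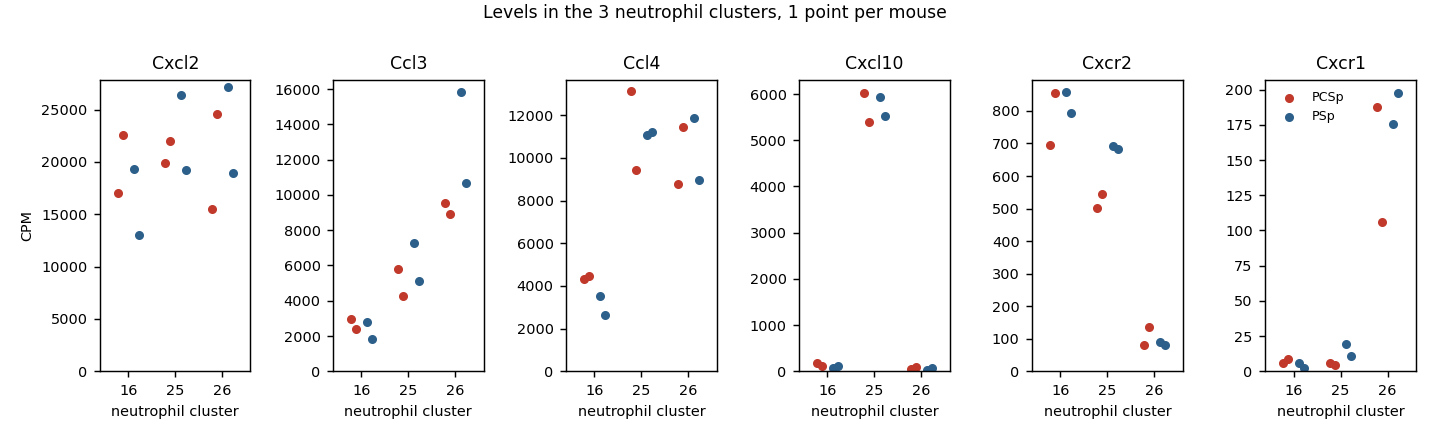
Levels of 6 members in the 3 neutrophil clusters (x axis), 1 point per mouse, y axis in CPM, PCSp mice left of PSp mice. Cxcl10 stands out in cluster 25 (5400 to 6014 CPM in the 4 mice), Ccl3 in cluster 26 and Cxcr2 in clusters 16 and 25.

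Epithelial cells, the only cells in which PB-Cre is designed to act, sent 12 ligands. Cxcl5, a further ligand of Cxcr2, stood at 492 and 697 CPM in the PCSp mice and 759 and 600 CPM in the PSp mice, and 99.1% of its UMIs lay in epithelial cells. Cxcl17, a mucosal chemokine, stood at 320 and 257 CPM in the PCSp mice and 269 and 338 CPM in the PSp mice. Cxcl15, the epithelial chemokine lungkine, stood at 207 and 146 CPM in the PCSp mice and 141 and 214 CPM in the PSp mice. The groups overlapped for each of these 3 ligands. Ccl20, the ligand of Ccr6, stood at 68.4 and 70.5 CPM in the PCSp mice and 69.4 and 55.0 CPM in the PSp mice. Cx3cl1, a membrane-bound chemokine, stood at 39.1 and 35.6 CPM in the PCSp mice and 35.6 and 40.1 CPM in the PSp mice. Cxcl1 was detected more widely: its mean level was highest in smooth muscle cells and pericytes, at 565 and 623 CPM in the PCSp mice and 416 and 299 CPM in the PSp mice, while 81.5% of its UMIs came from the more numerous epithelial cells. Cxcl13, the ligand of Cxcr5, had similar levels in fibroblasts, at 269 and 238 CPM in the PCSp mice and 259 and 233 CPM in the PSp mice, and in epithelial cells, at 203 and 375 CPM in the PCSp mice and 198 and 138 CPM in the PSp mice; the ranges of these classes overlap.

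Within the epithelium the ligands were spread unevenly over the marker-defined subclasses. Luminal cells had the highest Cxcl2, at 2226 and 1932 CPM in the PCSp mice and 1303 and 2596 CPM in the PSp mice, against 188 to 406 CPM in basal cells. Cxcl17 was likewise higher in luminal cells, at 705 and 723 CPM in the PCSp mice and 565 and 546 CPM in the PSp mice, than in basal cells, at 66.9 to 114 CPM. Cxcl5 stood at 658 to 1192 CPM in luminal progenitor cells, 688 to 824 CPM in luminal cells and 159 to 343 CPM in basal cells. An epithelial sub-cluster of 204 cells, led by Ifit2 and Rsad2, held Cxcl10 at 2559 and 1641 CPM in the PCSp mice and 2020 and 1162 CPM in the PSp mice.

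Mononuclear phagocytes were the top class of 10 ligands. The monocyte-recruiting ligands of Ccr2 were all highest there. Ccl2 stood at 475 and 383 CPM in the PCSp mice and 604 and 465 CPM in the PSp mice. Ccl7 stood at 440 and 386 CPM in the PCSp mice and 525 and 256 CPM in the PSp mice, and Ccl12 stood at 608 and 362 CPM in the PCSp mice and 781 and 507 CPM in the PSp mice. The groups overlapped in all 3. Cxcl16, the transmembrane ligand of Cxcr6, varied least, at 570 and 496 CPM in the PCSp mice and 556 and 585 CPM in the PSp mice. Ccl6 and Ccl9, ligands of Ccr1 in mice, varied more. Ccl6 stood at 507 and 1371 CPM in the PCSp mice and 832 and 221 CPM in the PSp mice. Ccl9 stood at 170 and 357 CPM in the PCSp mice and 274 and 132 CPM in the PSp mice. Ccl8 stood at 659 and 520 CPM in the PCSp mice and 1258 and 269 CPM in the PSp mice, a wide spread in which the PSp mice lay at either end. Ccl17 and Ccl22, ligands of Ccr4 that mature dendritic cells make, stood at 75.0 to 112 CPM and 23.9 to 33.2 CPM over the 4 mice.

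Sub-clusters of the phagocytes divided these ligands. A sub-cluster of 274 cells led by Retnla, F13a1 and Cd163 held Ccl8 at 4584 CPM, Ccl7 at 2334 CPM, Ccl2 at 1587 CPM and Ccl12 at 1451 CPM over its pooled cells, in each case several times the level of all phagocytes. A sub-cluster of 18 cells led by Fscn1 and Il12b held Ccl5 at 4766 CPM, Ccr7 at 3103 CPM, Ccl17 at 2344 CPM and Ccl22 at 1296 CPM. Conventional dendritic cells had Ccr2 at 670 and 565 CPM in the PCSp mice and 598 and 395 CPM in the PSp mice, and the few monocytes (4 to 45 per mouse) had it at 666 to 1158 CPM. Cx3cr1, the receptor of Cx3cl1, was higher in macrophages, at 591 and 390 CPM in the PCSp mice and 610 and 694 CPM in the PSp mice, than in monocytes, at 52.2 to 199.7 CPM.

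T and NK cells were the main source of Ccl5 and Xcl1. Ccl5, a T cell attractant stored by cytotoxic lymphocytes, stood at 6356 and 5871 CPM in the PCSp mice and 4751 and 5163 CPM in the PSp mice, and 84.7% of its UMIs lay in this class. A Ccl5 UMI was seen in 62.2% and 64.6% of T and NK cells of the PCSp mice and 60.6% and 59.7% of those of the PSp mice, against 6.64% and 3.41% of epithelial cells of the PCSp mice and 4.31% and 4.32% of those of the PSp mice, whose median depths were 8167 to 14046 UMIs. With cells thinned to 500 UMIs the shares were 53.1% and 54.1% in the PCSp mice and 47.3% and 50.2% in the PSp mice for T and NK cells, and 0.301% to 0.728% for epithelial cells. Xcl1, the ligand of Xcr1 on cross-presenting dendritic cells, stood at 649 and 479 CPM in the PCSp mice and 825 and 1133 CPM in the PSp mice, with 97.3% of its UMIs in the class. NK cells had more Xcl1, at 1400 to 2457 CPM in the 4 mice, than CD8 T cells, at 624 and 430 CPM in the PCSp mice and 403 and 1134 CPM in the PSp mice. Ccl1, a ligand of Ccr8, reached 152 CPM in 1 PSp mouse and at most 10.0 CPM in the others.

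Stromal and vascular classes added ligands of their own. Ccl21a, the lymphatic ligand of Ccr7, stood at 5265 and 4584 CPM in endothelial cells of the PCSp mice and 938 and 2424 CPM in those of the PSp mice, with 96.7% of its UMIs in this class. Within the endothelium it was carried by lymphatic cells, at 22300 and 23400 CPM in the PCSp mice and 18420 and 18200 CPM in the PSp mice. Cxcl12, the ligand of Cxcr4, was shared between endothelial cells, at 372 and 715 CPM in the PCSp mice and 705 and 354 CPM in the PSp mice, and fibroblasts, at 410 and 310 CPM in the PCSp mice and 523 and 479 CPM in the PSp mice. Cxcl14, a chemokine of many epithelia and fibroblasts, stood at 771 and 1499 CPM in fibroblasts of the PCSp mice and 1198 and 586 CPM in those of the PSp mice, and 1 fibroblast cluster of 428 cells held it at 2980 and 3494 CPM in the PCSp mice and 4283 and 3274 CPM in the PSp mice. Ccl11, the eosinophil-recruiting ligand of Ccr3, stood at 336 and 174 CPM in fibroblasts of the PCSp mice and 358 and 182 CPM in those of the PSp mice; its receptor Ccr3 had 42 UMIs in all. Cxcl9, the partner of Cxcl10 on Cxcr3, was highest in endothelial cells, at 258 and 58.2 CPM in the PCSp mice and 117 and 21.1 CPM in the PSp mice, where the ranges overlap with those of phagocytes. Ccl19 was highest in smooth muscle cells and pericytes (mean 56.0 CPM) and nearly as high in fibroblasts. The ligands Ccl24 (mean 13.5 CPM, phagocytes), Ccl25 (11.9 CPM, endothelial cells), Ccl28 (5.67 CPM, epithelial cells) and Ccl27a (27.9 CPM, glial cells) did not exceed the level of shed RNA in the class where they were highest.

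**Figure D3:**
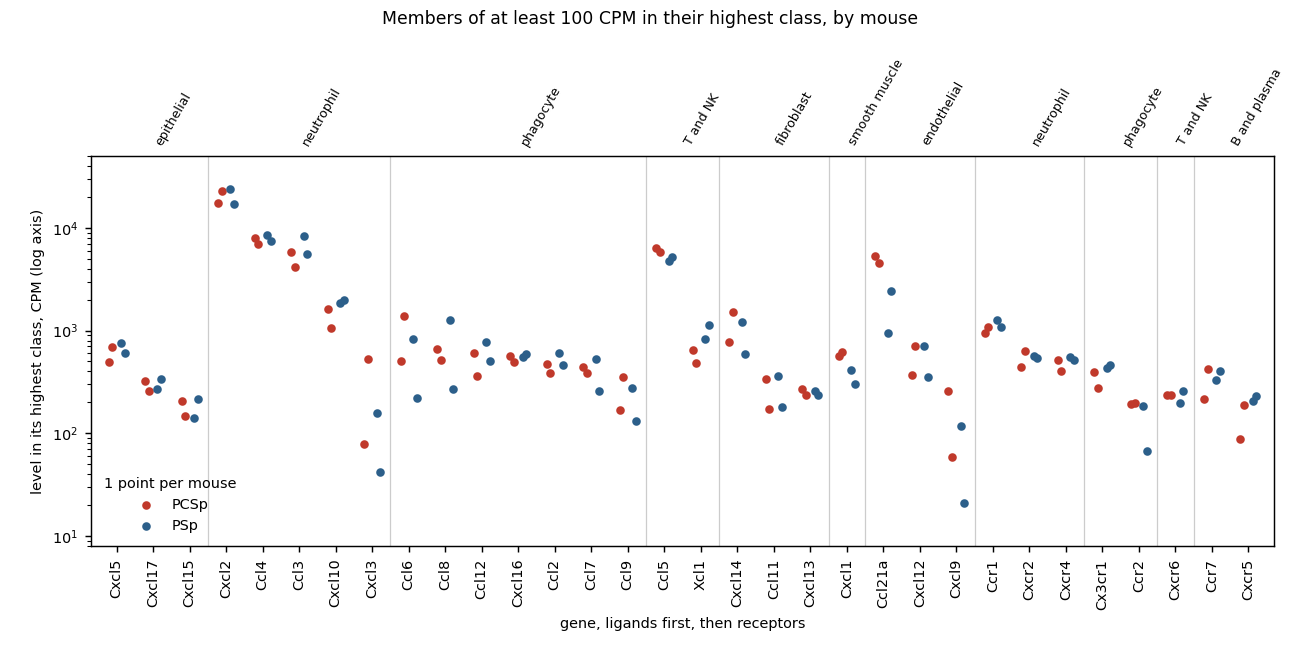
Level of members with a mean of at least 100 CPM in the class where it is highest, 1 point per mouse, PCSp mice left of PSp mice, y axis in CPM on a log scale. The spread between mice is narrow for Cxcl16 (496 to 585 CPM) and wide for Cxcl3 (41.6 to 528 CPM) and Ccl8 (269 to 1258 CPM).

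Receptors marked out the leukocyte classes. Neutrophils held Ccr1, the receptor of Ccl3 and Ccl5, at 951 and 1075 CPM in the PCSp mice and 1262 and 1090 CPM in the PSp mice. Cxcr2, the receptor of Cxcl1, Cxcl2, Cxcl3 and Cxcl5, stood at 446 and 639 CPM in the PCSp mice and 562 and 546 CPM in the PSp mice. A Cxcr2 UMI was found in 42.5% and 49.8% of neutrophils of the PCSp mice and 50.3% and 50.9% of those of the PSp mice, against 0.657% to 0.836% of the deeper epithelial cells of the 4 mice. Thinned to 500 UMIs, these shares were 17.9% and 25.3% in the PCSp mice and 22.2% and 21.0% in the PSp mice for neutrophils, and at most 0.0896% for epithelial cells. Cxcr4, the receptor of Cxcl12, was also highest in neutrophils, at 515 and 406 CPM in the PCSp mice and 555 and 520 CPM in the PSp mice. B and plasma cells, of which there were 21 to 75 per mouse, had it at 235 and 380 CPM in the PCSp mice and 243 and 233 CPM in the PSp mice.

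B and plasma cells were the top class of the lymphoid homing receptors. Ccr7 stood there at 215 and 422 CPM in the PCSp mice and 328 and 402 CPM in the PSp mice. Cxcr5, the receptor of Cxcl13, stood at 87.3 and 188 CPM in the PCSp mice and 209 and 233 CPM in the PSp mice. T and NK cells held Cxcr6 at 236 and 234 CPM in the PCSp mice and 199 and 261 CPM in the PSp mice, with 96.7% of its UMIs, and Cxcr3 at 45.8 and 42.7 CPM in the PCSp mice and 34.0 and 40.3 CPM in the PSp mice. Within that class gamma delta and innate-like T cells had the highest Cxcr6, at 421 and 462 CPM in the PCSp mice and 319 and 767 CPM in the PSp mice. Phagocytes held Cx3cr1 at 394 and 279 CPM in the PCSp mice and 434 and 465 CPM in the PSp mice. They held Ccr2 at 191 and 196 CPM in the PCSp mice and 185 and 67.8 CPM in the PSp mice. The range of Ccr2 in phagocytes overlaps with that in T and NK cells. Ccr6 stood at 31.7 to 103 CPM in B and plasma cells of the 4 mice and Cxcr1, a further neutrophil receptor, at 29.9 to 65.2 CPM in neutrophils. The receptors Ccr4 (mean 15.8 CPM, highest in T and NK cells), Ccr8 (7.82 CPM, same class), Ccr9 (5.03 CPM, phagocytes), Ccr10 (7.55 CPM, B and plasma cells), Ccr3 (2.63 CPM, neutrophils) and Xcr1 (15.3 CPM, phagocytes) reached the receiver limit in no class. Xcr1, on cross-presenting dendritic cells, was concentrated in a sub-cluster of 44 phagocytes led by Itgae and Clec9a, at 511 and 373 CPM in the PCSp mice and 87.3 and 198 CPM in the PSp mice. That sub-cluster held only 12 and 18 cells in the PCSp mice and 3 and 11 cells in the PSp mice.

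Of 35 ligand and receptor pairs listed from general knowledge of the family, 34 had both genes among the members, and 23 had a sending and a receiving class. In 14 of these 23 pairs a class met both limits. Neutrophils both sent Cxcl1, Cxcl2 and Cxcl3 and carried Cxcr2, and they sent Ccl3 and Ccl5 and carried Ccr1. Phagocytes sent Ccl2, Ccl7 and Ccl12 and carried Ccr2. Other pairs linked different classes. Epithelial Cxcl5 faced Cxcr2 on neutrophils, and epithelial Ccl20 faced Ccr6 on B and plasma cells. Cxcl16, sent by 6 classes, faced Cxcr6 on T and NK cells, Ccl21a of endothelial cells faced Ccr7 on B and plasma cells, phagocytes and T and NK cells, and Cxcl12 of endothelial cells and fibroblasts faced Cxcr4 on 4 leukocyte classes. Cx3cl1 of epithelial cells, fibroblasts and endothelial cells faced Cx3cr1 on phagocytes. These are pairs of transcripts, and neither protein nor contact between cells was measured.

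The comparison the study was designed for is PCSp against PSp tumours, that is, Chd1-floxed against Chd1-intact epithelium on an otherwise shared background of alleles. In classes where no mouse had fewer than 50 cells, UMIs were summed per mouse and all genes were tested with edgeR's quasi-likelihood test with Benjamini-Hochberg adjustment; a positive log2 fold change means higher in PCSp mice. Fold changes use TMM-scaled totals and are given with their standard error, and a gene was called at an adjusted p of at most 0.05. Where a count of calls under another setting or without a mouse lacks the share of all genes, it is no result about the members.

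In T and NK cells 2 of the 19 members tested were called, against 37 of all 7834 genes tested (0.472%). Cxcl10 fell in PCSp mice, at 147 and 152 CPM, against 363 and 485 CPM in PSp mice, with a log2 fold change of -1.56 ± 0.14 (edgeR adjusted p = 6.8e-05). Xcl1 also fell, at 649 and 479 CPM in PCSp mice, against 825 and 1133 CPM in PSp mice, with a log2 fold change of -0.84 ± 0.15 (edgeR adjusted p = 0.0205). For both ligands each PCSp mouse lay below each PSp mouse. In the class the genotypes did not overlap, in either direction, for 8 of the 19 members (42.1%), against 38.2% of all genes. In CD8 T cells alone Xcl1 overlapped between the genotypes. There 0 of the 10 members tested were lower in both PCSp mice, against 16.4% of all genes. Over the 19 members the median log2 fold change was 0.08, with 10 higher and 9 lower in PCSp mice, and over all genes it was 0.00. At an unadjusted p under 0.05 there were 6 of the 19 members, against 8.35% of all genes. Among them was Ccl5, with 0.25 ± 0.09 (edgeR adjusted p = 0.354), and both PCSp mice above both PSp mice. Among receptors above the receiver limit Ccr7 had the widest difference, -0.49 ± 0.29 (edgeR adjusted p = 0.749), and Cxcr6 (-0.02 ± 0.13) overlapped between the genotypes. Below that limit Ccr4 had -1.24 ± 0.36 (edgeR adjusted p = 0.22).

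Cxcl10 was called in T and NK cells in each setting tried, and Xcl1 was not called with DESeq2 (adjusted p = 0.584) or with doublets kept (edgeR adjusted p = 0.218). The number of members called was 4 without PCSp mouse 2, 4 without PSp mouse 1 and 5 without PSp mouse 2. Within the class, a sub-cluster of 72 cells led by Ifit3, Ifit1 and Ifit2 carried Cxcl10 at 1373 and 1277 CPM in the PCSp mice and 3270 and 1885 CPM in the PSp mice. It made up 5.43% and 2.62% of T and NK cells in the PCSp mice and 7.98% and 12.2% in the PSp mice, but its leading genes themselves differ between the genotypes, so this share is no separate finding. Without it Cxcl10 stood at 70.8 and 119 CPM in PCSp mice and 140 and 283 CPM in PSp mice, with a log2 fold change of -1.27 ± 0.27 (edgeR adjusted p = 0.0464), and 2 of 17 members were called (0.55% of all genes). NK cells made up 14.1% and 16.1% of the class in the PCSp mice and 20.2% and 23.5% in the PSp mice, which moves with Xcl1, and the part of this share in the Xcl1 result was not tested. The 10 epithelial markers summed to 503 and 445 CPM in T and NK cells of the PCSp mice and 356 and 454 CPM in those of the PSp mice, and all 10 were seen in every mouse; the part of shed RNA in these results was not tested.

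An interferon-response list, chosen with earlier results of these data known, was counted in the same classes. In T and NK cells all 12 of its tested genes were lower in PCSp mice, with a median log2 fold change of -0.80. At an unadjusted p under 0.05 there were 10 (8.35% of all genes), and 3 fell by the test (0.472% of all genes). The 3 called were Ifit1 (-1.26 ± 0.18, edgeR adjusted p = 0.00386), Ifi44 (-2.41 ± 0.39, edgeR adjusted p = 0.00822) and Ifit3 (-1.07 ± 0.20, edgeR adjusted p = 0.0216). All 13 tested genes were lower in epithelial cells (median -0.82) and in neutrophils (median -0.47), none of them called by edgeR although 13 and 9 had an unadjusted p under 0.05 (7.68% and 8.8% of all genes). In phagocytes and in fibroblasts 11 of 13 were lower and 2 higher (medians -0.59 and -0.36), again with no call, and 7 and 3 had an unadjusted p under 0.05 (6.52% and 3.82% of all genes). In endothelial cells 8 were higher and 4 lower (median 0.18), with no call, and 2 had an unadjusted p under 0.05 (6.52% of all genes), both higher in PCSp mice. None of the tested genes of the other 3 lists was called in any class. In T and NK cells, where 8.35% of all genes had an unadjusted p under 0.05, this was so for 1 of 17 inducers and NF-kB regulators (Il17a, the cytokine that induces Cxcl1 and Cxcl5 in epithelia, at 81.2 and 136 CPM in PCSp mice and 65.4 and 67.5 CPM in PSp mice), for 3 of 20 signalling genes below chemokine receptors (Rgs1, Arrb2 and Grk2) and for none of 3 atypical receptors and outlying chemokines.

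**Figure D4:**
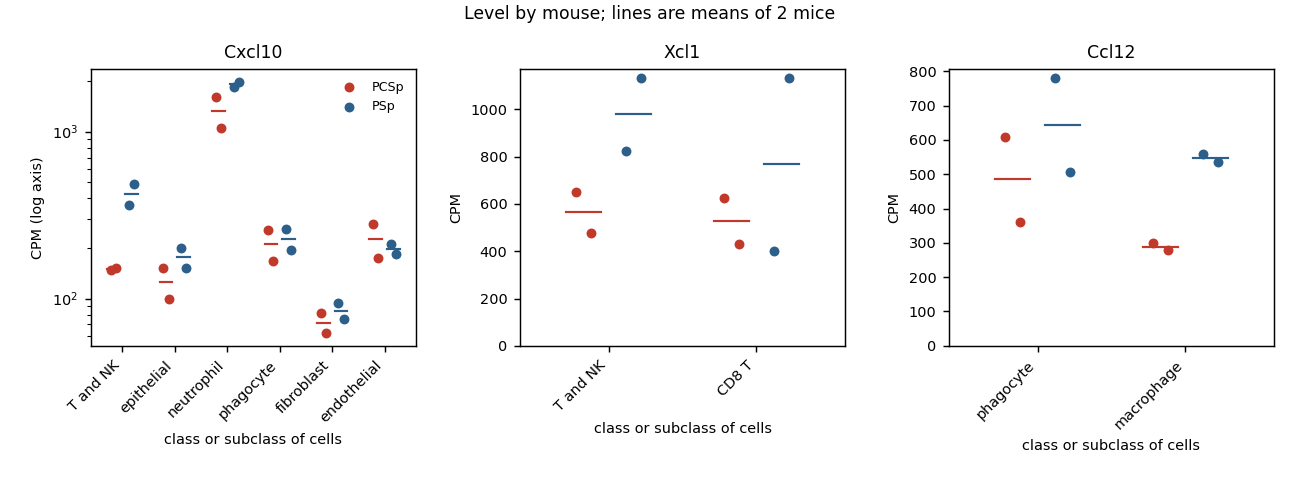
Levels of Cxcl10, Xcl1 and Ccl12 by class or subclass (x axis), 1 point per mouse with a line at the mean of 2 mice, PCSp left of PSp, y axis in CPM (log axis for Cxcl10). In T and NK cells Cxcl10 (147 and 152 CPM in PCSp mice, 363 and 485 CPM in PSp mice) and Xcl1 lie lower in both PCSp mice.

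In epithelial cells none of the 35 members tested was called by edgeR, as was the case for all 16451 genes (0%), while 3 members had an unadjusted p under 0.05 (7.68% of all genes) and DESeq2 called 1. None of these 3 reached the sender limit in this class. Among the ligands that epithelial cells sent, the widest differences were those of Cxcl13, with 0.77 ± 0.33 (edgeR adjusted p = 0.681), Cxcl10, with -0.50 ± 0.23 (edgeR adjusted p = 0.682), and Cxcl1, with 0.30 ± 0.26 (edgeR adjusted p = 0.801). Cxcl13 was higher in both PCSp mice and the other 2 overlapped. The genotypes did not overlap for 11 of the 35 members (31.4%), against 39.3% of all genes. The abundant Cxcl5 (-0.21 ± 0.20), Cxcl17 (-0.10 ± 0.17) and Cxcl15 (-0.03 ± 0.26) overlapped too. Luminal progenitor cells, tested alone, gave no call among 32 members (0% of all 14434 genes), while 3 members fell under 0.05 before adjustment (8.33% of all genes) and 2 called by DESeq2; Cxcl13 stood there at 277 and 422 CPM in PCSp mice and 215 and 186 CPM in PSp mice (0.81 ± 0.21, edgeR adjusted p = 0.407). Without PSp mouse 1 and without PSp mouse 2 there were 4 and 2 calls in luminal progenitor cells.

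Basal cells, tested alone, gave 3 calls among 27 members, against 0.585% of 13845 genes. Cxcl10 fell to 88.9 and 91.7 CPM in PCSp mice, against 177 and 146 CPM in PSp mice (-0.86 ± 0.11, edgeR adjusted p = 0.0345). Ccl20 fell to 10.2 and 9.16 CPM in PCSp mice, against 23.6 and 29.8 CPM in PSp mice (-1.49 ± 0.16, edgeR adjusted p = 0.0277), and so lay under the sender limit in 1 mouse. Ccl21a was called too, at 1.82 and 2.25 CPM in PCSp mice and 0.199 and 0.179 CPM in PSp mice, levels that RNA shed by endothelial cells could leave. Cxcl17 missed the threshold, at 66.9 and 71.8 CPM in PCSp mice and 114 and 101 CPM in PSp mice (-0.66 ± 0.09, edgeR adjusted p = 0.0532). Cxcl3 stood at 13.5 and 14.1 CPM in PCSp mice and 31.9 and 19.98 CPM in PSp mice (-0.94 ± 0.21, edgeR adjusted p = 0.136). At an unadjusted p under 0.05 there were 7 of the 27 members, against 16.1% of all genes. These calls depended on which mice and cells were used: without PCSp mouse 1 and without PCSp mouse 2 there was no call, without PSp mouse 1 there was 1 call, and there was none with doublets kept or with clusters split at resolution 2.

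In neutrophils none of the 31 members tested was called by edgeR or DESeq2, against 0.0876% of 9133 genes. At an unadjusted p under 0.05 there were 8 members (8.8% of all genes), of which 2 were above the sender limit. Ccl6 stood at 473 and 1059 CPM in PCSp mice and 450 and 317 CPM in PSp mice (0.96 ± 0.33, edgeR adjusted p = 0.433), with both PCSp mice higher, PCSp mouse 1 narrowly so. Cxcl10, with the values given earlier, had a log2 fold change of -0.58 ± 0.19 (edgeR adjusted p = 0.411) and lay lower in both PCSp mice. The interferon-led cluster 25, which carries most Cxcl10 of the class, held 24.0% and 16.7% of neutrophils in the PCSp mice and 28.9% and 33.5% in the PSp mice. Without it the sign of the Cxcl10 difference turned, to 0.60 ± 0.20 (edgeR adjusted p = 0.427). The cluster is set apart by interferon-induced genes, and all 13 tested genes of the interferon-response list were lower in PCSp neutrophils. Neither its share nor the turned sign is therefore a separate finding, and the part of the share in the Cxcl10 difference was not tested. Cxcl3 had the widest difference among members above the sender limit, 1.60 ± 0.74 (edgeR adjusted p = 0.582), with PCSp mouse 2 far above the other mice. The abundant Cxcl2 (-0.07 ± 0.25), Ccl3 (-0.53 ± 0.24), Ccl4 (-0.15 ± 0.19), Ccr1 (-0.26 ± 0.17), Cxcr2 (-0.07 ± 0.19) and Cxcr4 (-0.27 ± 0.16) were not called. Both PCSp mice were lower for Ccr1 and Cxcr4. The genotypes did not overlap for 14 of the 31 members (45.2%), against 38.4% of all genes. Without PCSp mouse 1 there were 9 calls, without PCSp mouse 2 there were 3 and without PSp mouse 2 there was 1.

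In mononuclear phagocytes none of 32 members was called by edgeR or DESeq2, against 0.0799% of 10015 genes, and 6 had an unadjusted p under 0.05 (6.52% of all genes). Ccl3 stood at 363 and 298 CPM in PCSp mice and 454 and 437 CPM in PSp mice (-0.48 ± 0.13, edgeR adjusted p = 0.535), Ccl4 at 1450 and 1239 CPM in PCSp mice and 1737 and 1843 CPM in PSp mice (-0.46 ± 0.13, edgeR adjusted p = 0.540), and Cx3cr1 had -0.46 ± 0.17 (edgeR adjusted p = 0.667). All 3 were lower in both PCSp mice. In this class the genotypes did not overlap for 9 of the 32 members (28.1%), against 38% of all genes. The widest differences above the sender limit, Cxcl9 (0.87 ± 0.54, edgeR adjusted p = 0.819), Ccl6 (0.79 ± 0.57, edgeR adjusted p = 0.857) and Cxcl1 (0.68 ± 0.55, edgeR adjusted p = 0.88), had overlapping groups. So had Ccl2 (-0.36 ± 0.16), Ccl7 (0.04 ± 0.27), Ccl8 (-0.41 ± 0.53), Ccl9 (0.33 ± 0.37), Ccl12 (-0.45 ± 0.26) and Cxcl16 (-0.14 ± 0.12), while Ccr2 (0.57 ± 0.35) was higher in both PCSp mice. The cells named conventional dendritic cells do not include the sub-clusters led by Itgae and Clec9a or by Fscn1. So named, conventional dendritic cells, which carried Ccr2, were 7.84% and 7.45% of phagocytes in the PCSp mice and 4.89% and 5.0% in the PSp mice. Monocytes, which carried it too, were 13 of 676 and 45 of 711 phagocytes in the PCSp mice and 17 of 368 and 4 of 420 in the PSp mice. The part of these shares in the Ccr2 difference was not tested. Without PSp mouse 1 there were 5 calls and without PSp mouse 2 there were 4. Leaving out 2 sub-clusters whose leading genes include Mgp and keratins (31.7% to 46.0% of the class in the 4 mice) left 0 calls (0.0709% of all genes), with 6 members under 0.05 before adjustment (6.43% of all genes).

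Macrophages, tested alone, gave 1 call among 23 members, against 0.212% of 8008 genes. This subclass left out the Retnla-led sub-cluster of 274 cells, which held Ccl12, Ccl2, Ccl7 and Ccl8 at several times the level of all phagocytes. The cells of that sub-cluster made up 13.2% and 16.3% of phagocytes in PCSp mice and 10.6% and 7.14% in PSp mice. It was not the only one left out. The macrophages tested were 20.9% and 26.2% of phagocytes in PCSp mice and 23.1% and 25.5% in PSp mice. The results of this paragraph do not cover the other phagocytes. In the macrophages tested, Ccl12, the mouse ligand of Ccr2, fell to 301 and 278 CPM in PCSp mice, against 558 and 536 CPM in PSp mice (-0.96 ± 0.15, edgeR adjusted p = 0.0307). Ccl2 stood at 365 and 281 CPM in PCSp mice and 623 and 611 CPM in PSp mice (-0.98 ± 0.17, edgeR adjusted p = 0.0540). In all there were 8 of 23 members at an unadjusted p under 0.05, all 8 with a negative log2 fold change, against 7.92% of all genes in either direction and 3.81% in that direction. Among them Ccl3 stood at 544 and 398 CPM in PCSp mice and 751 and 705 CPM in PSp mice, and Ccl4 at 1834 and 1516 CPM in PCSp mice and 2530 and 2797 CPM in PSp mice. Ccl7 stood at 135 and 163 CPM in PCSp mice and 346 and 170 CPM in PSp mice. Ccl8 stood at 175 and 91.4 CPM in PCSp mice and 755 and 116 CPM in PSp mice, with overlapping groups. Cx3cr1, with the values given earlier, was lower in both PCSp mice. The genotypes did not overlap for 34.8% of the 23 members, against 38.2% of all genes. The macrophage result depended on how the class was drawn: with doublets kept the log2 fold change of Ccl12 was 0.11 and at resolution 2 it was 0.04, with a sign opposite to that given. The same held for Ccl7 (0.10 and 0.77) and for Ccl8, which with doublets kept was called higher in PCSp mice (0.82, edgeR adjusted p = 0.0235). With cells limited to 10% mitochondrial UMIs the value of Ccl12 was -0.12 and with members among the genes used for clustering it was -0.33, neither of them called. Ccl12 was not called without PCSp mouse 2, PSp mouse 1 or PSp mouse 2 either (highest edgeR adjusted p = 0.0669), while the count of calls was 5 without PCSp mouse 1, 2 without PSp mouse 1 and 3 without PSp mouse 2.

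In fibroblasts none of 25 members was called by edgeR or DESeq2 (0% of 12174 genes), and 8 had an unadjusted p under 0.05 (3.82% of all genes), 5 of them above the sender limit. Ccl19, a ligand of Ccr7, stood at 28.7 and 30.3 CPM in PCSp mice and 57.2 and 46.2 CPM in PSp mice (-0.83 ± 0.16, edgeR adjusted p = 0.709). Cxcl9 stood at 10.2 and 17.2 CPM in PCSp mice and 28.0 and 26.6 CPM in PSp mice (-1.04 ± 0.25, edgeR adjusted p = 0.996). Ccl2 stood at 53.8 and 65.1 CPM in PCSp mice and 88.1 and 72.5 CPM in PSp mice (-0.46 ± 0.16), and Cxcl12 (-0.50 ± 0.17) was lower in both PCSp mice too. Cx3cl1 stood at 21.3 and 29.0 CPM in PCSp mice and 18.0 and 17.1 CPM in PSp mice (0.49 ± 0.21). These 3 had an edgeR adjusted p of 0.996 each. Cxcl14 (0.33 ± 0.38), Ccl11 (-0.10 ± 0.36) and Cxcl13 (0.02 ± 0.14), the ligands with the highest levels beside Cxcl12, overlapped. The genotypes did not overlap for 11 of the 25 members (44%), against 32% of all genes. Without PCSp mouse 2 there was 1 call and without PSp mouse 1 there were 3.

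In endothelial cells none of 18 members was called by edgeR or DESeq2 (0% of 9162 genes), and 6 had an unadjusted p under 0.05 (6.52% of all genes), 2 of them above the sender limit. Among members above the sender limit the widest difference was that of Ccl21a, whose levels were given earlier: both PCSp mice were higher, with a log2 fold change of 1.54 ± 0.34 (edgeR adjusted p = 0.288). Lymphatic cells were 39.2% and 31.0% of endothelial cells in the PCSp mice and 21.1% and 21.6% in the PSp mice, and the part of this share in the Ccl21a difference was not tested. Without lymphatic cells Ccl21a stood at 61.1 and 2.63 CPM in the PCSp mice and was not seen in the PSp mice, and there was again no call among 16 members (0.0113% of all genes), with 6 of 16 members at an unadjusted p under 0.05 (5.3% of all genes). The 10 epithelial markers summed to 629 and 468 CPM in endothelial cells of the PCSp mice and 233 and 287 CPM in those of the PSp mice, with all 10 seen in every mouse, and the part of shed RNA was not tested. Cxcl12 (0.03 ± 0.34) overlapped. Cxcl9 had 1.27 ± 0.67 (edgeR adjusted p = 0.831) with overlapping groups. Cx3cl1 stood at 26.8 and 25.4 CPM in PCSp mice and 11.2 and 17.3 CPM in PSp mice (0.85 ± 0.31, edgeR adjusted p = 0.683). The genotypes did not overlap for 9 of the 18 members (50%), against 35.8% of all genes. Of the 18 members 15 were higher in PCSp mice, against 48.6% of all genes, with a median log2 fold change of 0.41 against -0.01 over all genes. Only 6 of the 18 reached the sender limit in this class, and these 6 were higher. Without PCSp mouse 1, PSp mouse 1 and PSp mouse 2 there were 3, 5 and 2 calls.

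**Figure D5:**
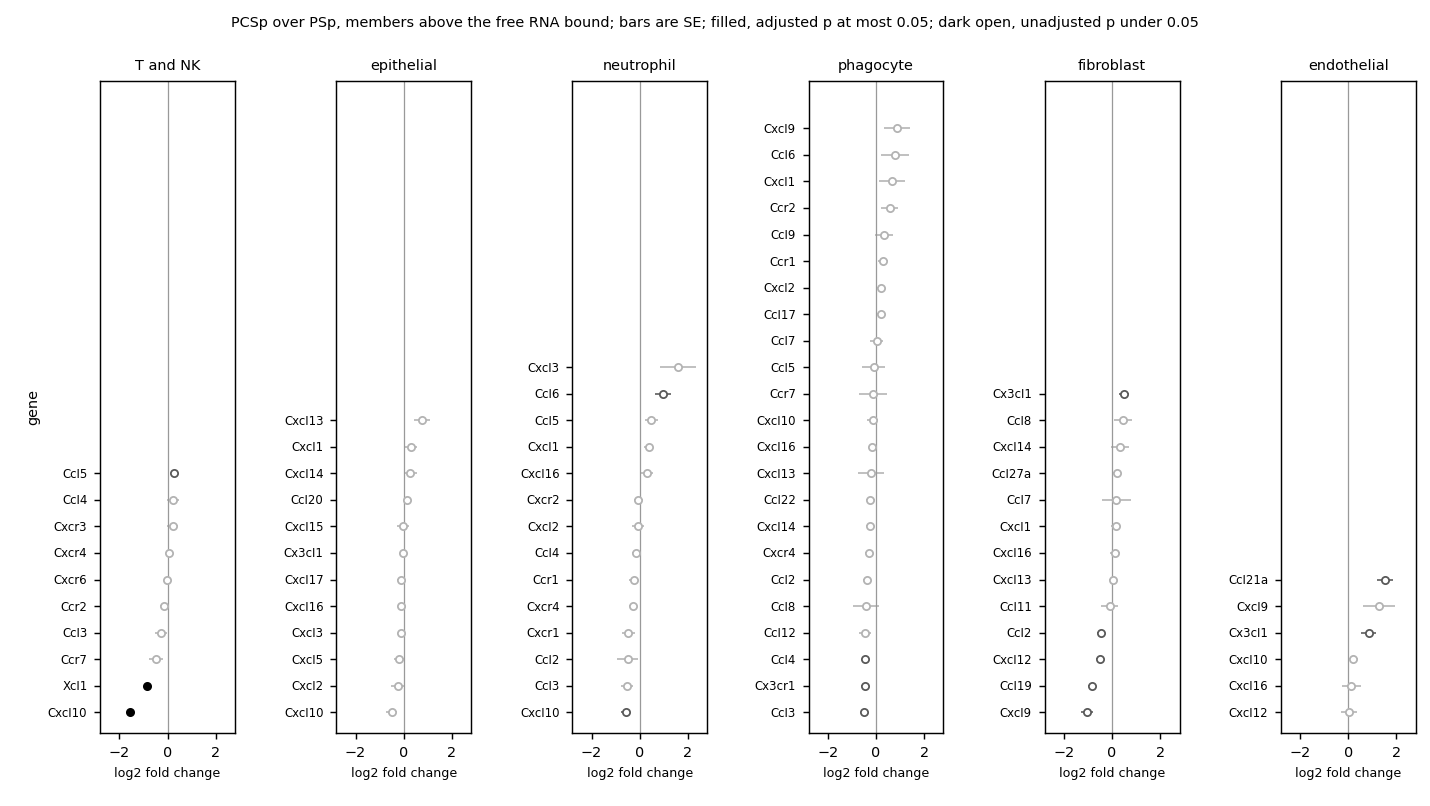
Log2 fold change (PCSp over PSp) of members that reach the sender or receiver limit in each main class, with bars of 1 standard error on either side. Dark open points mark an unadjusted p under 0.05. Filled points mark an edgeR adjusted p of at most 0.05, and these were Cxcl10 and Xcl1 in T and NK cells.

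Over whole tumours, where fewer cells of a type and less RNA per cell cannot be told apart, none of the 52 members was called by edgeR or DESeq2 (0% of 17854 genes), and 8 had an unadjusted p under 0.05 (9.68% of all genes). Ccl5 stood at 172 and 126 CPM in PCSp mice and 102 and 102 CPM in PSp mice (0.51 ± 0.15, edgeR adjusted p = 0.467), and T and NK cells were 5.25% and 3.87% of cells in the PCSp mice and 3.61% and 3.75% in the PSp mice. Cxcl10 stood at 213 and 163 CPM in PCSp mice and 265 and 244 CPM in PSp mice (-0.48 ± 0.13, edgeR adjusted p = 0.460). Ccl21a (1.62 ± 0.49, edgeR adjusted p = 0.468) and Ccr2 (0.98 ± 0.35, edgeR adjusted p = 0.501) were higher in both PCSp mice. The genotypes did not overlap for 17 of the 52 members (32.7%), against 42.7% of all genes. CD8 T cells gave no call among 10 members by edgeR or DESeq2 (0.0401% of 4992 genes) and 2 members under 0.05 before adjustment (7.19% of all genes), and of these Ccl3 stood above the limit, at 36.2 and 34.8 CPM in PCSp mice and 31.2 and 176 CPM in PSp mice (-1.43 ± 0.56, edgeR adjusted p = 0.635). Cxcl10 was spread from 28.6 to 514 CPM between the 2 PSp mice. Without PCSp mouse 2, PSp mouse 1 and PSp mouse 2 there were 2, 4 and 2 calls in CD8 T cells.

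Whether the genotype difference of a member depended on the class was tested against the epithelium in a fit with mouse, class and their interaction with genotype. For T and NK cells the p-values of this fit match a normal curve, so the variance was in effect pooled over genes. They do not measure the spread of a member between mice. In the neutrophil and endothelial fits the variance rested mostly on other genes too. Those p-values measure the spread between mice only in small part. In T and NK cells 4 of 46 members had a difference of this kind, against 0.393% of genes, and 8 had an unadjusted p under 0.05, against 4.95%. Of these, Cxcl10 was the member above the sender limit in both classes. Its log2 fold change in T and NK cells minus that in epithelial cells was -1.08 ± 0.14 (edgeR adjusted p = 2.5e-10). Without PCSp mouse 1 this difference was -0.69 and was not called. In endothelial cells 4 of 36 members were called (0.486% of genes) and in neutrophils 1 of 43 (0.0698%), each below the sender limit in at least 1 of the classes compared; before adjustment 12 and 5 members fell under 0.05 (5.36% and 6.3% of genes). In phagocytes and fibroblasts none of 45 and 39 members was called by edgeR (0.0446% and 0.0181% of genes), with 9 and 8 at an unadjusted p under 0.05 (4.81% of genes in each); DESeq2 was not run on these differences. Without PCSp mouse 1 the calls numbered 3 in neutrophils, 1 in T and NK cells and 1 in fibroblasts. Without PCSp mouse 2 there were 2 in phagocytes. Without PSp mouse 1 there were 2 in neutrophils, 9 in phagocytes and 4 in fibroblasts, and without PSp mouse 2 there were 7 in phagocytes and 3 in fibroblasts.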

How the data were processed

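The data are droplet single-cell RNA counts of 4 whole prostate tumours. Per the submitters' processing notes the authors used Cell Ranger 6.1.2 and the mouse build mm10; the deposited values are raw UMI counts per gene and barcode, and everything after them was computed here. Strand handling and further filters of the authors are not given in the sources used here.

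Cells needed at least 300 genes, 500 UMIs and at most 20% mitochondrial UMIs. Scrublet's automatic threshold did not work (64, 0, 2 and 0 barcodes marked in the libraries), so the highest scorers were left out at 0.8% per 1000 barcodes, 237 to 572 per library. Counts were scaled to 10000 and clustered in scanpy 1.11.5 (2000 variable genes without the members, 30 components, 15 neighbours, Leiden resolution 1). Clusters were named from marker lists, and the limits of the naming were adjusted after leading genes of clusters had been seen and before chemokine levels were looked at. Members, lists and tests were chosen with earlier results of these data known.

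UMIs were summed per mouse and class and given as counts per 1000000 UMIs (CPM). Genes were tested with edgeR 4.0.16 (TMM, filterByExpr, quasi-likelihood) in classes of at least 50 cells per mouse, adjusted over all genes at 0.05, and with DESeq2 1.42.0 as an alternative; genes that the filter on low counts removed were not tested, so members counted as tested are not all members. In simulated counts for T and NK cells 79.1% of genes changed by 1 log2 unit and 26.9% of those changed by 0.5 were called, and in epithelial cells 59.7% and 1.5%. Of the genes called there, 9 of 145 and 6 of 112 had not been changed. The simulation left out genes of low counts and gave all others the same dispersion. Its shares therefore do not hold for scarce members or for members that vary widely between mice. No pair of libraries agreed within sampling noise (chi-square statistics divided by their degrees of freedom of 44.0 to 130).

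Values in every mouse are given for members of at least 100 CPM in their highest class. They are also given for members called or at an unadjusted p under 0.05 in a class where they reach the sender or receiver limit. Up to 3 further members with the widest differences per class are included, and other members are given by level. An allele that both genotypes share and 1 member are not reported here by name, though that member is in the counts. Of the side lists, counts are given with the genes of smallest p in T and NK cells.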

Additional observations from a re-analysis of the deposited data

Results flagged for a closer look

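The genotype effect (log2 fold change, PCSp over PSp) of 9 member and class combinations differed from the effect in epithelial cells by the test of the difference itself (edgeR quasi-likelihood, adjusted over all genes). For T and NK cells the p-values come from variance in effect pooled over genes and do not measure the spread between mice. For endothelial cells and neutrophils they rest mostly on variance shared over genes and measure that spread only in small part. In T and NK cells the difference was -1.08 for Cxcl10, -1.82 for Xcl1 (edgeR adjusted p = 0.0003), 0.91 for Ccl5 (edgeR adjusted p = 9.7e-07) and -4.85 for Ccl21a (edgeR adjusted p = 0.00023). In neutrophils it was 1.18 for Ccl5 (edgeR adjusted p = 0.0383). In endothelial cells it was -2.003 for Ccl21a, 1.82 for Ccl4, -1.48 for Cxcl14 and 1.85 for Cxcl9, with edgeR adjusted p-values of 0.00012, 0.0432, 0.0244 and 0.0027. Apart from Cxcl10 in T and NK cells, each of these members lay below the sender limit in at least 1 of the classes compared, and the part of shed RNA was not tested. With each mouse left out in turn, Ccl21a in endothelial cells was the only one of the 9 called in all 4 fits (-2.63 to -1.15). Ccl5 in T and NK cells was not called without PCSp mouse 2 (0.78, edgeR adjusted p = 0.246) or PSp mouse 1 (0.17, edgeR adjusted p = 0.955), and Cxcl10 there was not called without PCSp mouse 1 (-0.69, edgeR adjusted p = 0.345). Ccl21a and Xcl1 in T and NK cells were not called without PCSp mouse 1 (-4.67 and -1.42, edgeR adjusted p = 0.174 and 1.0) or PSp mouse 2 (-1.98 and -1.19, edgeR adjusted p = 1.0 and 0.330). Ccl5 in neutrophils was not called without PSp mouse 1 (1.01, edgeR adjusted p = 0.114). In endothelial cells neither Ccl4, Cxcl14 nor Cxcl9 was called without PCSp mouse 1 (1.37, -1.34 and 0.66, edgeR adjusted p = 0.915, 0.558 and 1.0), Ccl4 was not called without PSp mouse 2 (1.15, edgeR adjusted p = 0.430) and Cxcl14 not without PSp mouse 1 (-1.22, edgeR adjusted p = 0.339).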

How the results depend on the processing

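No paired analysis was possible because the labels give no replicate numbers shared between the genotypes. The 47 gene results followed here were picked for passing in the main fit of the same 4 mice. Passing meant a call, or an unadjusted p under 0.05 above the sender or receiver limit or over whole tumours. Differences between classes had to be called. Of these 47 results 42 kept their sign in every setting. That choice favours a kept sign, so the count is no test of the results. The counts of members called that follow stand without the share of all genes called in the same fit. They show how far the calls move and are no result about the members. DESeq2 called 1 member in epithelial cells, 1 in T and NK cells, 5 in basal cells, 2 in luminal progenitor cells and 3 in macrophages. Without a filter on low counts the calls were 1 in epithelial cells, 8 in neutrophils, 5 in T and NK cells, 5 in fibroblasts, 6 in endothelial cells, 2 in CD8 T cells, 10 in basal cells, 5 in luminal progenitor cells and 7 in macrophages. With doublets kept they were 1 in T and NK cells, 0 in basal cells and 1 in luminal progenitor cells. With at most 10% mitochondrial UMIs they were 1 in basal cells and 0 in macrophages, at resolution 2 they were 0 in both, and with members among the variable genes 0 in macrophages. Leaving out 1 mouse, a fit in which the lone mouse is assumed to vary like the other group, gave 0 to 9 calls in neutrophils, 0 to 5 in phagocytes, 3 to 5 in T and NK cells, 0 to 3 in fibroblasts, 0 to 5 in endothelial cells, 0 to 4 in CD8 T cells, 0 to 3 in basal cells, 0 to 4 in luminal progenitor cells and 1 to 5 in macrophages. For differences from epithelial cells it gave 1 to 3 calls in neutrophils, 0 to 9 in phagocytes, 1 to 4 in T and NK cells, 0 to 4 in fibroblasts and 4 to 6 in endothelial cells.

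The sign turned for Cxcl10 in neutrophils without cluster 25 (0.60), for Ccl3 in CD8 T cells without PSp mouse 2 (0.17, in a range over mice left out that starts at -2.32), for Ccl12 in macrophages with doublets kept (0.11) and at resolution 2 (0.037), for Ccl7 in the same settings (0.10 and 0.77), and for Ccl8 in the same settings (0.82 and 0.57) and without PSp mouse 1 (0.18, in a range that starts at -2.58). The cause was not tested. The settings without a named cluster or cell type, and leaving out mice for the differences between classes, were chosen after seeing the data. Classes of few cells (B and plasma cells, smooth muscle cells) were too small for a test.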
